A study of Mus musculus with 16 samples.

Results

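The genes described here are those of the platelet-derived growth factor (PDGF) system on the array: the ligand genes Pdgfa, Pdgfb, Pdgfc and Pdgfd, the receptor genes Pdgfra and Pdgfrb, the receptor-like gene Pdgfrl, and Plat, which encodes tissue plasminogen activator. They were taken by name, and each of the 8 had a row of its own among the 19938 genes that had a row with 1 symbol. No member had a second row, and no row that named several genes named a member. RNA of 16 liver samples of C57BL/6 mice was measured on Affymetrix Mouse Gene 1.0 ST arrays, 1 array per sample. Of these samples, 7 were from Pdgf-c transgenic mice and 9 from wildtype mice, and no further treatment or allele is given for either group. The labels give no promoter for the transgene, no species of its cDNA and no age of the mice, and do not state that each array came from a separate animal. The p-values therefore measure the spread between these samples, which may be in part technical.

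The samples are labelled stromal cells, whereas RNA was extracted from whole liver according to the protocol. Alb, the albumin gene of hepatocytes, had log2 values of 13.5 to 13.6 in transgenic samples and 13.5 to 13.7 in wildtype samples, among the brightest rows of the table, which goes against a purified stromal fraction. The samples are called livers here. In bulk RNA, more cells of a type and more RNA per cell cannot be told apart. On the second principal component of the 35557 rows transgenic array 1 (28.8) and wildtype array 9 (-54.4) were the ends, and where either of them stood at the end of a member's range this is stated. Values are log2 intensities after GCRMA, and since each row has its own probes, levels of different genes are not compared.

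PDGFs are dimers that bind a pair of receptor tyrosine kinases, the alpha receptor and the beta receptor, and drive the migration and division of mesenchymal cells. The A and B chains are processed inside the cell and are the products of Pdgfa and Pdgfb. The C and D chains are secreted with an N-terminal CUB domain that must be cut off before they can activate a receptor. Tissue plasminogen activator removes this domain from PDGF-C, and urokinase and matriptase act on PDGF-D. In the liver, quiescent hepatic stellate cells and portal fibroblasts carry PDGF receptors, and the beta receptor is a classic mark of stellate cell activation. Platelets store PDGFs and release them at sites of injury.

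RefSeq promoter windows of assembly GRCm38.p6 were read for 4 of the 8 members, Pdgfa, Pdgfc, Pdgfd and Pdgfra. Member windows on a single chromosome were left out of the reading, so a window of another member may exist. The 250 bases before the start are shown for the gene of the transgene's ligand, for the ligand gene with the largest difference and for the receptor gene with the largest difference. Capitals mark matches on either strand to any of 4 motifs, the GC box, the TATA box, the AP-1 site and the CArG box, which is the binding element of serum response factor. No matches overlapped. The windows are chr3:81036166-81036415 on the plus strand for Pdgfc, chr9:6168236-6168485 on the plus strand for Pdgfd and chr5:75152001-75152250 on the plus strand for Pdgfra.
Pdgfc: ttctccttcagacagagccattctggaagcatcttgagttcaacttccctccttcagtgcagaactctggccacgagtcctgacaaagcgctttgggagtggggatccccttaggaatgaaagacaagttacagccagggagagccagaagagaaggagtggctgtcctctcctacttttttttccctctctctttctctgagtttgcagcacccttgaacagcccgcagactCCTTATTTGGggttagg
Pdgfd: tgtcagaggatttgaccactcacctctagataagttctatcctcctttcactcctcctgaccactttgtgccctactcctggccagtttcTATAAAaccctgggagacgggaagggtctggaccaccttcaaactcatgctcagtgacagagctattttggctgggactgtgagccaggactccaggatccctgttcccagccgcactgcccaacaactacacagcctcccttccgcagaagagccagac
Pdgfra: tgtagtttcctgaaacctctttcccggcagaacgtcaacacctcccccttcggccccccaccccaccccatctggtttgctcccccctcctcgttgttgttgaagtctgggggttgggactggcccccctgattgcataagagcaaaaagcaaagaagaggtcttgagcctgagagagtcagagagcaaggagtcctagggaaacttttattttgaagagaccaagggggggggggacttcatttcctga
The Pdgfc window held 1 CArG box, from -17 to -8 relative to the start, and 1.47% of all 32851 windows of this length held one. The Pdgfd window held 1 TATA box (TATAAA) at -160 to -155 (12.4% of windows held one), and the Pdgfra window held no match to any of the 4 motifs. Both Pdgfa windows on the minus strand, chr5:138994282-138994531 and chr5:138994945-138995194, held GC boxes (GGGCGG), 1 in the first and 2 in the second, as did 32.7% of all windows. AP-1 sites (TGANTCA) occurred in 6.75% of windows and in none of these 5. The windows had GC contents of 50.8% (Pdgfc), 53.6% (Pdgfd) and 54.4% (Pdgfra), against a median of 52.4% over all windows, and 66.4% and 72.4% in the 2 Pdgfa windows. These matches describe the letters only.

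All 8 genes were higher in the transgenic livers at an adjusted p of 0.05 (limma, Benjamini-Hochberg over all 35557 rows), and the size of the rise ran from 1.31-fold for Pdgfb to 8.98-fold for Pdgfra. Over all genes, 12.1% were higher at this threshold and 11.1% lower. Quantile normalization gave 11.2% higher and 14.4% lower, and centring the arrays on their medians gave 9.33% higher and 16.8% lower. Higher genes thus made up 52.3%, 43.8% and 35.7% of the called genes on the deposited, quantile and centred scales, and the 8 PDGF genes were higher on each of the 3 scales. Their median log2 difference was 0.99, against -0.04 over all genes. In 6 of the 8, every transgenic array exceeded every wildtype array, a pattern that 5.43% of all genes had; the exceptions were Pdgfc and Pdgfrl.

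**Figure D1:**
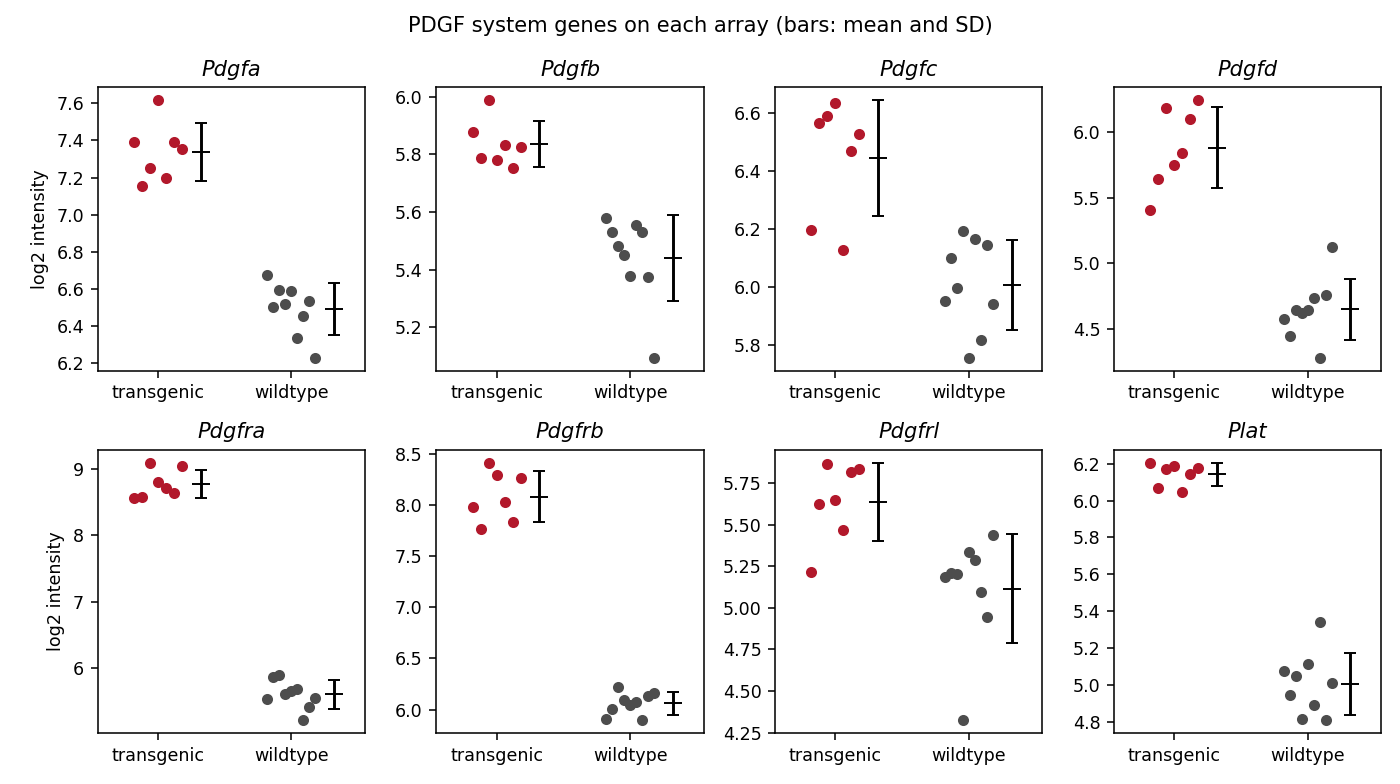
Log2 intensity (y axis, scaled separately in each panel) of the 8 PDGF system genes on the 7 transgenic arrays (left, red) and the 9 wildtype arrays (right, grey); points are arrays and bars give the mean and SD. The groups are apart in 6 panels and share part of their range in the panels of Pdgfc and Pdgfrl.

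Among the ligand genes, Pdgfc, the gene named in the transgene, had values from 6.13 to 6.63 with a median of 6.53 in transgenic livers and from 5.76 to 6.19 with a median of 6.00 in wildtype livers. The lowest transgenic array, number 5, fell inside the wildtype range, and array 1 lay just above the highest wildtype array. The other 5 transgenic arrays lay between 6.47 and 6.63. The log2 difference was 0.44 ± 0.0873 (SE, 7 against 9 arrays; 95% interval 0.25 to 0.63), a 1.36-fold rise with an adjusted p of 0.00132 (limma), and the rise ranked 1132 among the 19938 genes. Whether the row reads the transgene, the endogenous transcript or both cannot be told from the labels.

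Pdgfa, whose A chain dimer binds the alpha receptor alone, ranged from 7.16 to 7.62 (median 7.35) in transgenic livers and from 6.23 to 6.67 (median 6.52) in wildtype livers. The groups were 0.48 apart at their nearest arrays. The rise was 1.80-fold (0.84 ± 0.0734 on the log2 scale; limma adjusted p = 1.48e-07). Wildtype array 9 was the lowest wildtype array for this gene.

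Pdgfd, whose product binds mainly the beta receptor, spread most among the ligand genes, from 5.40 to 6.24 (median 5.84) in transgenic livers and from 4.28 to 5.13 (median 4.65) in wildtype livers. It rose 2.34-fold (1.23 ± 0.127; limma adjusted p = 1.3e-06), the largest difference of the 4 ligand genes, and the groups were 0.28 apart. The nearest arrays of the groups were transgenic array 1 and wildtype array 9, the ends of the second principal component. Its mean over all arrays (5.19) was just under the median row of the table (5.25).

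Pdgfb, the ligand gene of platelets and endothelium whose B chain dimer binds both receptors, had the smallest difference of the 8. It lay between 5.75 and 5.99 (median 5.83) in transgenic livers and between 5.09 and 5.58 (median 5.48) in wildtype livers. The groups did not overlap, with a gap of 0.17. The rise was 1.31-fold (0.39 ± 0.068; limma adjusted p = 0.000351), and without wildtype array 9, the lowest array, the difference was 0.35.

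Plat, the protease gene, had 6.05 to 6.21 (median 6.17) in transgenic livers and 4.81 to 5.34 (median 5.01) in wildtype livers. Its transgenic arrays were the most uniform of any member, with an SD of 0.0615 against 0.166 in wildtype livers, and the groups were 0.71 apart. Transgenic array 1 was the highest transgenic array. The rise was 2.20-fold (1.14 ± 0.0712; limma adjusted p = 1.98e-09), larger in size than those of Pdgfa, Pdgfb and Pdgfc.

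The receptor genes moved furthest. Pdgfra, which encodes the alpha receptor that binds PDGF-C, ranged from 8.56 to 9.09 (median 8.71) in transgenic livers and from 5.22 to 5.91 (median 5.62) in wildtype livers. The gap between the groups, 2.65, was several times the range within either group. Transgenic array 1 was the lowest transgenic array. The rise of 8.98-fold (3.17 ± 0.102; 95% interval 2.95 to 3.39; limma adjusted p = 3.79e-13) ranked 7 of 19938 genes.

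Pdgfrb, which encodes the beta receptor, ranged from 7.76 to 8.41 (median 8.03) in transgenic livers and from 5.90 to 6.22 (median 6.08) in wildtype livers, with a gap of 1.54. It rose 4.05-fold (2.02 ± 0.0881; 95% interval 1.83 to 2.21; limma adjusted p = 1.98e-11) and ranked 46. The SD between transgenic arrays, 0.247, compared with 0.109 between wildtype arrays.

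Pdgfrl encodes a secreted protein that resembles the extracellular part of the receptors and lacks a kinase. It had 5.21 to 5.86 (median 5.65) in transgenic livers and 4.32 to 5.44 (median 5.20) in wildtype livers, so the groups overlapped. Transgenic array 1 was the array inside the wildtype range, and wildtype array 9 was the highest wildtype array. The rise of 1.44-fold (0.52 ± 0.137) had the weakest support of the 8 (limma adjusted p = 0.0107; highest adjusted p over 27 alternatives 0.0296). It was 0.42 without wildtype array 4, which lay at 4.32.

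The members thus differed in how far they moved, and 3 pairs of like role were compared by the difference of the 2 log2 values on each array. Pdgfra minus Pdgfrb averaged 0.70 ± 0.115 in transgenic livers and -0.45 ± 0.187 in wildtype livers (SD, 7 and 9 arrays), so the alpha receptor rose 1.15 more on the log2 scale. The exact permutation p was 8.74e-05, the smallest that the 11440 splits of the arrays can give (adjusted over the 3 pairs 0.000262). Among the ligands of the alpha receptor, Pdgfc rose 0.41 less than Pdgfa, a difference of -0.41 (exact permutation p = 0.0035, adjusted p = 0.0035). Among the ligands of the beta receptor, Pdgfd rose 0.84 more than Pdgfb (exact permutation p = 0.00105, adjusted p = 0.00157). Each size compares rows as measured, on the log2 scale.

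Within the groups, the receptors were set against the ligand and against each other in 6 relations. In transgenic livers Pdgfra and Pdgfrb had a Pearson r of 0.885 over 7 arrays (exact permutation p = 0.0105, adjusted over the 6 relations 0.0631) and a Spearman rho of 0.857 (exact permutation p = 0.0238, adjusted p = 0.143). With the 2 arrays farthest from the median of Pdgfra left out r was 0.836. Arrays 3, 4 and 7 were the highest for both genes. In wildtype livers the same pair had r = 0.492 (exact permutation p = 0.178, adjusted p = 0.436) and rho = 0.367 (exact p = 0.336, adjusted p = 0.492) over 9 arrays, and r was -0.279 without the 2 farthest arrays. No relation passed the adjusted threshold.

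For Pdgfc and Pdgfra, r was 0.472 in transgenic livers (exact permutation p = 0.262, adjusted p = 0.436) and 0.299 in wildtype livers (exact p = 0.436, adjusted p = 0.436), with rho of 0.500 (exact p = 0.267, adjusted p = 0.492) and 0.250 (exact p = 0.521, adjusted p = 0.521). Without the 2 arrays of the group farthest from its median of Pdgfc these r were 0.279 and 0.484. For Pdgfc and Pdgfrb, r was 0.340 in transgenic livers (exact p = 0.433, adjusted p = 0.436) and 0.361 in wildtype livers (exact p = 0.335, adjusted p = 0.436), with rho of 0.464 (exact p = 0.302, adjusted p = 0.492) and 0.317 (exact p = 0.410, adjusted p = 0.492). Without the same 2 arrays of each group these r were 0.564 and 0.414. A relation between the level of the ligand gene and that of a receptor gene among livers of 1 genotype was not detectable with 7 and 9 arrays.

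**Figure D2:**
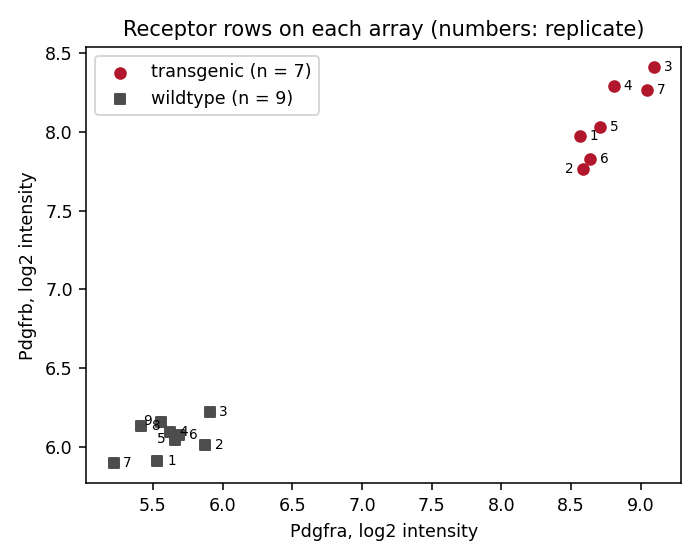
Log2 intensity of Pdgfra (x axis) against Pdgfrb (y axis) on each array, with transgenic arrays as red circles and wildtype arrays as grey squares; numbers name the replicate. The groups form separate clusters, transgenic arrays at 8.56 to 9.09 for Pdgfra and wildtype arrays at 5.22 to 5.91.

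The genes whose array-to-array deviations were most like those of a receptor were read after each value was centred on its group mean, over 16 arrays and 11550 brighter genes. Those nearest to Pdgfra were Ifitm1 (r = 0.856), Chst15 (r = 0.821) and Reln (r = 0.820), and Reln, which encodes the secreted protein reelin of stellate cells, itself rose (1.03 ± 0.129; limma adjusted p = 1.34e-05). Chst15 rose by 0.52 ± 0.105 (limma adjusted p = 0.00148). Ifitm1 had a difference of 0.08 ± 0.0808 (limma adjusted p = 0.59). Nearest to Pdgfrb were the small GTPase gene Rhoa (r = 0.801), Sfxn3 (r = 0.771) and the axon guidance receptor gene Robo2 (r = 0.767). Robo2 rose by 2.11 ± 0.108, Sfxn3 by 0.37 ± 0.0798 and Rhoa by 0.24 ± 0.0317 (limma adjusted p = 1.36e-10, 0.00286 and 2e-05). Nearest to Pdgfc were Ap2a1 (r = 0.826), BC048403 (r = 0.804) and Kif1c (r = 0.798), none of which was called (limma adjusted p of 0.51 to 0.563). These coefficients were picked as the highest of many over the same 16 arrays and are a description.

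The 6 receptor kinase genes most closely related to the PDGF receptors were all measured and moved in both directions. Over all genes, 12.1% were called higher and 11.1% lower. The colony-stimulating factor receptor gene Csf1r, Flt3 and the VEGF receptor gene Flt1 rose, by 0.38 ± 0.102, 0.48 ± 0.103 and 0.56 ± 0.0666. Kit, the stem cell factor receptor gene, Flt4, the VEGF-C receptor gene, and Kdr, the main VEGF receptor gene of endothelium, fell by 0.56 ± 0.102, 0.69 ± 0.0852 and 1.01 ± 0.0976. Adjusted p-values (limma) ran from 5.53e-07 for Kdr to 0.0132 for Csf1r, and Csf1r lost its call with the replicate number as a block (adjusted p = 0.0672). Each moved by less than Pdgfrb.

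Pdgfra and Pdgfrb each lie beside relatives in the order of protein-coding genes. The next genes after Pdgfra are Kit and Kdr, both lower in the transgenic livers, and the 2 before it, Gsx2 and Chic2, had differences of 0.00 ± 0.115 and -0.13 ± 0.108 (limma adjusted p = 0.998 and 0.479). The gene after Pdgfrb is Csf1r. Further out, Cdx1 and Hmgxb3 had differences of -0.04 ± 0.071 and -0.09 ± 0.0784 (limma adjusted p = 0.755 and 0.491). No measured neighbour of either receptor gene, up to 2 genes on each side, moved by more than 1.01 on the log2 scale.

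**Figure D3:**
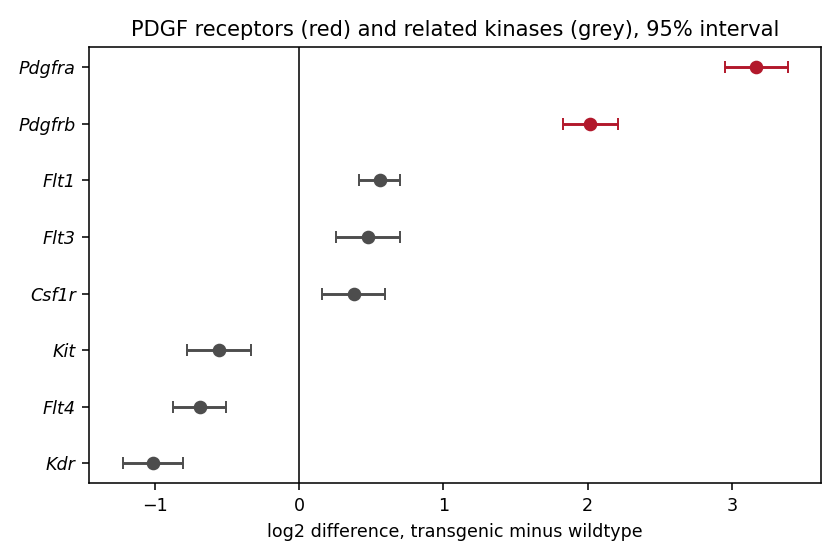
Log2 difference, transgenic minus wildtype (x axis), of the 2 PDGF receptor genes (red) and 6 related receptor kinase genes (grey), with 95% intervals. Pdgfra and Pdgfrb stand at 3.17 and 2.02, and the other 6 lie between -1.01 and 0.56.

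Around the ligands, genes that process PDGFs changed in both directions. Of 7 measured genes of proteases, protease inhibitors and the urokinase receptor, 2 rose, 2 fell and 3 were not called, and the median difference was 0.06. The share that rose was 28.6%, against 12.1% over all genes. Plau, which encodes urokinase, lay between 5.14 and 5.67 in transgenic livers and between 4.21 and 4.78 in wildtype livers and rose 1.91-fold (0.93 ± 0.0955; limma adjusted p = 1.19e-06). Serpini1, which encodes neuroserpin, an inhibitor of tissue plasminogen activator, rose 2.13-fold (1.09 ± 0.129; limma adjusted p = 6.23e-06). Plg, the plasminogen gene of hepatocytes, was lower on every transgenic array, between 12.5 and 12.6 against 12.6 and 12.7 in wildtype livers (-0.18 ± 0.0214; limma adjusted p = 5.48e-06). Furin, the convertase that matures the A and B chains, was lower by a similar amount (-0.16 ± 0.0469; limma adjusted p = 0.0235), a call lost after quantile normalization, under the replicate block and without transgenic array 4 or 6 (highest adjusted p 0.109). The matriptase gene St14 and the urokinase receptor gene Plaur differed by 0.06 ± 0.0748 and 0.14 ± 0.0777 (limma adjusted p = 0.672 and 0.256).

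Of 7 extracellular partners and co-receptors, 3 rose (42.9%, against 12.1% over all genes) and 1 fell, with a median difference of -0.02. Sparc, a matrix protein that binds PDGF, rose 2.66-fold (1.41 ± 0.0887), Thbs1, the thrombospondin gene, 1.62-fold (0.70 ± 0.0795) and Lrp1, a co-receptor of the beta receptor, 1.29-fold (0.36 ± 0.0708), while Nrp2 fell by 0.29 ± 0.0645. Adjusted p-values (limma) were at most 0.00372. Nrp1 differed by -0.24 ± 0.0839 (limma adjusted p = 0.0535) and was called lower in 8 of 27 alternatives, among them both other scalings and those without transgenic array 7 and wildtype arrays 2 and 3. Of 5 VEGF-type ligand genes, which share the cystine knot fold of PDGFs, Vegfc rose 1.74-fold (0.80 ± 0.121; limma adjusted p = 9.32e-05) and 4 were not called, although Vegfd was called higher in 3 of 27 alternatives, among them that without transgenic array 1.

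The genes that carry the signal inside the cell changed little. Of 30 measured genes of adaptors, kinases and transcription factors below the receptors, 1 rose and 3 fell, and the median difference was 0.03; the rate of higher calls, 3.33%, compares with 12.1% over all genes. The adaptor gene Nck2 rose (0.30 ± 0.0616; limma adjusted p = 0.00173), and its paralogue Nck1 fell (-0.25 ± 0.0694; limma adjusted p = 0.0139; 0.056 under the replicate block). Map2k2, a kinase of the ERK cascade, fell by 0.32 ± 0.0628 (limma adjusted p = 0.0012), and Pik3cb by 0.22 ± 0.0713 (limma adjusted p = 0.0364), a call that 10 of 27 alternatives lost. The phosphatase gene Ptpn11 differed by 0.16 ± 0.0575 (limma adjusted p = 0.0562), and was called higher in 10 of 27 alternatives. The list had 2 genes that rose when any one of transgenic arrays 1 and 5 and wildtype arrays 2, 6 and 9 was left out, and 4 when transgenic array 1 and wildtype array 9 were left out together.

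Among 20 measured negative regulators of PDGF receptor signalling 7 rose, 1 fell and 12 were not called, and the median difference was 0.16. The 4 largest rises were in feedback inhibitors of the Ras and ERK pathway: Spred2 rose by 0.69 ± 0.0943, Spry1 by 0.61 ± 0.0669, Dusp6 by 0.58 ± 0.16 and Spry2 by 0.54 ± 0.0804 on the log2 scale, with limma adjusted p-values from 2.84e-06 to 0.0144. For Spred2, Spry1 and Spry2 the groups did not overlap. Spred1, the ubiquitin ligase gene Cbl and Nf1 also rose. A second Spred2 row gave 0.33 ± 0.098 (limma adjusted p = 0.024). Ptpn2 and Ptprj, phosphatase genes counted as not called by their brightest row, each had a dimmer row that was called higher. For Ptpn2 the brightest row gave 0.02 ± 0.0794 and the dimmer row 0.23 ± 0.0614 (limma adjusted p = 0.923 and 0.0113). For Ptprj they gave 0.14 ± 0.0539 and 0.20 ± 0.0591 (limma adjusted p = 0.0762 and 0.0247). Acp1, a phosphatase gene with 5 rows, was the gene that fell (-0.18 ± 0.0627; limma adjusted p = 0.0496), and 17 of 27 alternatives did not call it, among them those without transgenic array 1, 2, 3 or 4 or any wildtype array but number 6. Of its other 4 rows 3 were called lower. Spry4 differed by 0.18 ± 0.118 (limma adjusted p = 0.353). Dusp1 had the lowest difference of the list, -0.55 ± 0.211 (limma adjusted p = 0.0837), and was called lower in 5 of 27 alternatives. Dusp4 and Dusp5 were not called.

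Early response genes of PDGF-treated fibroblasts rose in 4 of 18 cases and none fell (1, Fos, fell after quantile normalization, centring or under the replicate block); the median difference was 0.09. Klf6, a zinc finger factor gene that is induced early in activated rat stellate cells, rose 2.36-fold (1.24 ± 0.117; limma adjusted p = 4.22e-07), with 6.33 to 7.25 in transgenic livers and 5.13 to 5.79 in wildtype livers. Jun, Nr4a1 and Ier3 rose by 0.50 ± 0.118, 0.48 ± 0.0913 and 0.46 ± 0.0983 (limma adjusted p from 0.000958 to 0.00523). Fos and Egr1 differed by -0.18 ± 0.0811 and 0.41 ± 0.165 (limma adjusted p = 0.148 and 0.0971), and Myc, with 6.72 to 8.33 in transgenic livers and 5.94 to 8.11 in wildtype livers, by 0.82 ± 0.301 (limma adjusted p = 0.0667). Egr1 was called higher without wildtype array 6, and Myc in 4 of 27 alternatives, among them those without transgenic array 2 and wildtype array 1. The share of early response genes that rose was 22.2%. Over all 7 of these lists together, 21 of 93 measured genes rose and 10 fell. Among all genes of the array, 12.1% rose and 11.1% fell.

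**Figure D4:**
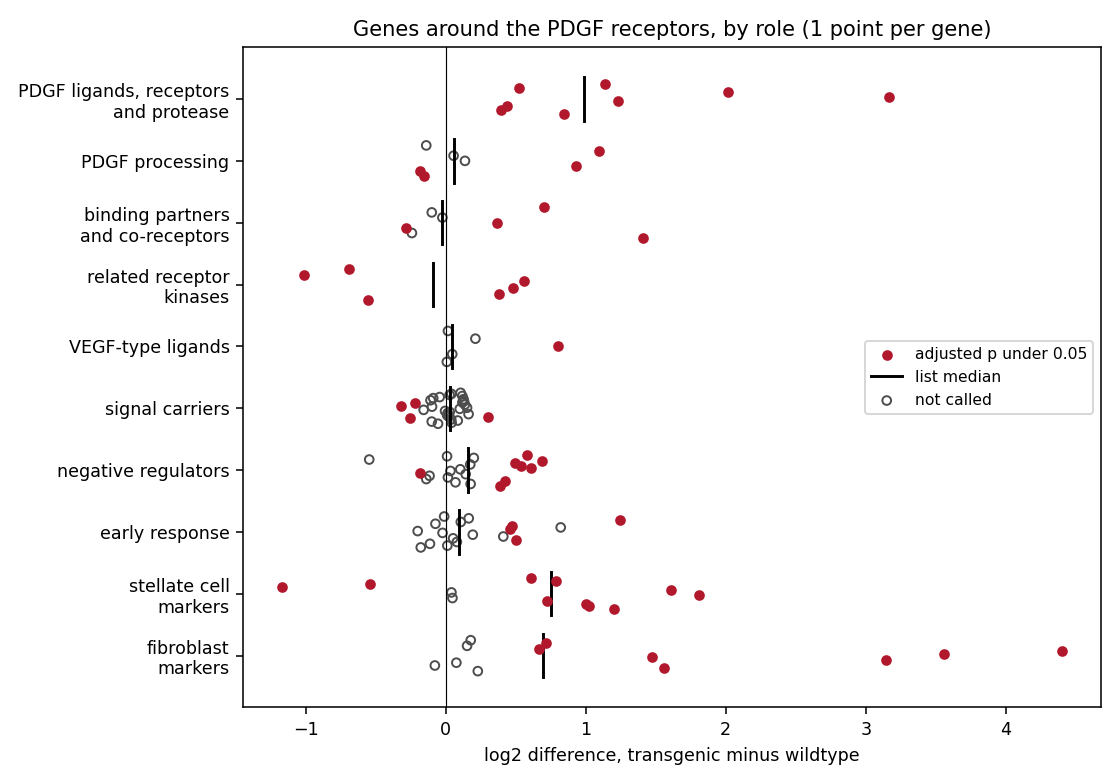
Log2 difference, transgenic minus wildtype (x axis), of each gene in the PDGF system, in 7 lists of genes around it and in 2 marker lists; filled points passed an adjusted p of 0.05, open points did not, and vertical bars are list medians. The median of the PDGF system is 0.99, and the medians of the 7 lists lie between -0.09 and 0.16.

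Many markers of stellate cells and fibroblasts, which carry PDGF receptors, rose as well, but not all of them. Of 12 hepatic stellate cell markers 8 rose (66.7%, against 12.1% over all genes) and 2, Rgs5 and Ecm1, fell, with a median difference of 0.75. The other 2, Lhx2 and Ngfr, were not called. Cygb, the globin of stellate cells, rose 3.50-fold (1.81 ± 0.106), Hgf 3.05-fold (1.61 ± 0.115), and Lrat, the enzyme of retinoid storage, 2.30-fold (1.20 ± 0.182), while Rgs5, a gene of pericytes and stellate cells, fell by 1.17 ± 0.129 (limma adjusted p at most 9.73e-05). The mean of the 12 rows ran from 7.12 to 7.34 on transgenic arrays and from 6.40 to 6.82 on wildtype arrays. Of 12 fibroblast markers 7 rose (58.3%) and none fell, with a median of 0.69 and a mean level of 7.16 to 7.38 against 5.83 to 6.14. The 5 not called were Thy1, Clec3b, Gas1, Entpd2 and Pi16. No marker of either list lay under the 20th percentile of the table (3.45) in both groups.

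Measured from the mean of the stellate cell markers on the same array, Pdgfra was 2.57 and Pdgfrb 1.42 higher in the transgenic group. The same difference was 0.63 for Pdgfd, 0.54 for Plat and 0.25 for Pdgfa, and it was -0.07 for Pdgfrl, -0.16 for Pdgfc and -0.20 for Pdgfb, which rose less than the mean of these markers. Against the mean of the fibroblast markers, which include Cd34, Lum and Mgp, Pdgfra was 1.83 and Pdgfrb 0.68 higher, whereas the other 6 members rose less than the mean of these markers. Their differences were -0.11 for Pdgfd, -0.20 for Plat, -0.50 for Pdgfa, -0.82 for Pdgfrl, -0.90 for Pdgfc and -0.95 for Pdgfb. This mean rose by 1.34, whereas the median difference of the list was 0.69, and Cd34, Lum and Mgp rose by 3.14, 3.56 and 4.40. Pdgfd, Plat and Pdgfa rose by more than that median (1.23, 1.14 and 0.84), and Pdgfrl, Pdgfc and Pdgfb by less (0.52, 0.44 and 0.39). The part of cell number in these differences was not tested.

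The counts of the marker lists below stand beside 12.1% of all genes that rose and 11.1% that fell. Of 8 measured platelet and megakaryocyte markers, 2 rose, 2 fell and 4 were not called. Pf4 and Ppbp, genes of platelet granule chemokines, rose by 2.32 ± 0.0807 and 1.10 ± 0.164, whereas Itga2b and Clec1b fell by 0.18 ± 0.0601 and 2.10 ± 0.119 (limma adjusted p at most 0.047, that of Itga2b, a call that 13 of 27 alternatives lost). The mean of the 8 rows was 5.68 to 5.92 on transgenic arrays and 5.57 to 5.75 on wildtype arrays. Bulk RNA does not show which cells of the liver these 8 rows were read from. Of 9 smooth muscle and pericyte markers 6 rose and 0 fell, led by Abcc9 (1.73 ± 0.0971), and mesothelial markers rose in 1 of 6, Wt1 (0.55 ± 0.0966). Sinusoidal endothelial markers fell in 6 of 8 cases with a median of -0.97, and vascular endothelial markers rose in 3 of 8 and fell in 1. Macrophage markers rose in 4 of 10 and fell in 5, lymphocyte markers rose in 4 of 8, neutrophil markers in 6 of 7 and cholangiocyte markers in 1 of 6, and hepatocyte markers rose in 1 of 8 and fell in 3. The single rise among cholangiocyte markers, Tspan8, was lost in 6 of 26 alternatives. These were both other scalings, the replicate block and the fits without transgenic array 2 or 6 or wildtype array 3. The single rise among hepatocyte markers, Apoa1, was lost in 10 of 27. Among these were centring, moderation without a trend and the replicate block. It was also lost without any one of transgenic arrays 1, 3 and 4 and wildtype arrays 1, 4 and 7. Of the hepatocyte markers that fell, Hnf4a lost its call in 4 of 27 alternatives and Asgr1 in 1 of 27. The part of these cells in the differences of the PDGF genes was not tested.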

How the data were processed

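RNA of 7 transgenic and 9 wildtype samples was measured on 1 Affymetrix Mouse Gene 1.0 ST array each, according to the labels. It was extracted from whole liver according to the protocol. The deposited log2 intensities were made by the authors with GCRMA (background correction by probe sequence, normalization between arrays and summary per transcript), per the submitters' processing notes; its version and settings are not given in the sources used here, and the log base was read from the range of 0.710 to 14.7. GCRMA pulls dim rows towards a floor, which makes their changes less certain. Column medians lay between 5.20 and 5.36. The number of arrays limits the precision, and detection calls were not used here. Scan dates were not used here either, so no batch could be tested.

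Of 35557 rows, 21789 had 1 gene symbol in GEO's platform annotation, 1621 several and 12147 none; the row with the highest mean stood for each of 19938 genes. Entrez identifiers of 21698 rows matched the GRCm38.p6 gene table, and 0 symbols changed. Listed genes with no such row were not analysed here. Groups were taken from the sample titles and fitted in R 4.3.3 with limma 3.58.1 (a linear model per row, moderated with a trend, two-sided, all rows, 14 residual degrees of freedom), with Benjamini-Hochberg adjustment over all rows, a threshold of 0.05 and no filter. Differences are transgenic minus wildtype with the standard error of the fit; 95% intervals use a t quantile of 14 degrees of freedom. The fit was tested on simulated data. Pairs of members and relations within groups were tested with exact two-sided permutations of arrays. The members and the gene lists were chosen with earlier results of these data known. The text names all members, up to 4 called genes of each list by size plus genes a statement turns on, and the 3 genes most alike to Pdgfc, Pdgfra and Pdgfrb; Spred1, Cbl, Nf1, second rows, genes not called and cell type markers were chosen for naming once values were known. The alternatives were 2 other scalings (quantiles, array medians), 2 smaller row sets (brighter rows, rows with 1 symbol), moderation without a trend or with robust variances, weighted arrays, values raised to the 20th percentile, gene means in place of the brightest row, a replicate block, and fits without each array in turn or without transgenic array 1 and wildtype array 9. Figures used matplotlib 3.10.9 (Python 3.11.15).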

Additional observations from a re-analysis of the deposited data

Results flagged for a closer look

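Samples far from the rest of their group were sought in 16 sets of values, 8 genes in each of 2 groups, and chance marks about 1 set in 20. In Pdgfb, wildtype array 9 was the lowest wildtype array at 5.09 (5.094), and the next lowest was 5.38. In Pdgfrl, wildtype array 4 was the lowest at 4.32 (4.323), and the next lowest was 4.95. Wildtype array 9 was also the lowest wildtype array in Pdgfa and the highest in Pdgfd and Pdgfrl. Pdgfb and Pdgfrl remained higher in the transgenic livers without them, at log2 differences of 0.35 and 0.42 (limma adjusted p = 0.000132 and 0.00528).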

How the results depend on the processing

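Each of the 8 members remained higher at an adjusted p of 0.05 (limma) in all 215 recomputed values, the highest adjusted p being 0.0296 (Pdgfrl after quantile normalization); Pdgfd had no value among rows above the median level. Leaving out 1 array at a time gave 3.11 to 3.21 for Pdgfra, 1.96 to 2.07 for Pdgfrb, 0.41 to 0.49 for Pdgfc and 0.42 to 0.59 for Pdgfrl. The 3 pairs kept their direction and call in 20 alternatives each. In transgenic livers the relation of Pdgfra and Pdgfrb passed the adjusted threshold with arrays centred on their medians (r = 0.889, adjusted exact permutation p = 0.0321), and its r ranged from 0.817 to 0.931 over all alternatives; the other 5 relations did not pass under any alternative. Same-numbered arrays of the 2 groups had correlations of their deviations between -0.0186 and 0.0859, and 0 of 7 transgenic arrays correlated best with its own number. These values over all rows showed no pairing by number, but they cannot exclude a shared batch that moved few rows. With the replicate block the 8 members stayed higher (Pdgfra 3.13, Pdgfrb 2.04, Pdgfc 0.45, Pdgfb 0.33), and 21 of the 93 genes around them were higher and 8 lower. Of the 31 genes called in these lists, 26 kept their call in every alternative; over all alternatives 20 to 26 were higher and 7 to 14 lower. Counts within single lists moved by over 1.5 times in 81 values, 18 of them the count of negative regulators that fell (0 to 2), 13 that of platelet markers that fell (1) and 11 that of signal carriers that rose (2 to 4). The cause was not tested.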
